A study of Homo sapiens with 12 samples.

Results

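Not every gene that moved when miR-101 was put into bladder cancer cells moved when EZH2 was knocked down, and the data below measure that gap gene by gene. For each gene the quantity is the miR-101 response minus the EZH2 siRNA response, called the difference of responses. The miR-101 response is the log2 intensity with miR-101 precursor minus that with Control miRNA, a precursor transfected as control. The EZH2 siRNA response is the log2 intensity with EZH2 siRNA minus that with control siRNA. All 12 of the 12 arrays of the study enter it, 3 for each of these 4 groups, chosen by their titles alone, and 13528 genes were tested. A positive difference means that the miR-101 response was the higher of the pair, and it is called higher below. A negative one is called lower.

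All cells were of UM-UC-3, a human line established from a bladder carcinoma, for which no engineered allele is named. The miR-101 precursor, Control miRNA, EZH2 siRNA and control siRNA were each transfected at 50 nM, and cells were taken at 72 h. The transfections were in triplicate, and no source says whether each replicate was its own culture. The p-values therefore rest on the spread among the arrays of a group, and that spread may be technical. By the column headers, the precursor arrays shared a bead chip and the siRNA arrays shared another. On both chips the controls took the first 3 positions and the treated samples the next 3. An effect that a chip or a position adds to every log2 value on it therefore drops out of the difference of responses. It does not drop out when miR-101 arrays are set directly against EZH2 siRNA arrays, or control precursor arrays against control siRNA arrays.

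MicroRNAs are short RNAs that guide Argonaute proteins to matching sites in messenger RNAs, mostly through the seed near their start, and the paired messenger RNA is then degraded or translated less. A microRNA has many such targets, whereas an siRNA is designed for a single one. EZH2 is the catalytic subunit of Polycomb repressive complex 2 (PRC2), which methylates lysine 27 of histone H3 at silenced genes, and the series title names it as a target of miR-101. The mature strand is printed to show the seed in capitals, as RefSeq gives it for GRCh38.p14 at chr9:4850345-4850365 on the plus strand, together with the 7 letters that a fully matched site for the seed would hold on the messenger RNA. No other mature human microRNA of that RefSeq set had this seed (0 others). Transcript sequences were not used here, so no site was looked for in the genes below.
hsa-miR-101-3p: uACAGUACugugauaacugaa
site: GTACTGT

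Between 15453 and 16377 of 46713 probes were detected on an array (33.1% to 35.1%), the median signal was 80.4 to 100.1, and arrays of a group correlated at 0.992 to 0.999. Mean signal was lowest on miR-101 replicate 2 (304) and highest on EZH2 siRNA replicate 1 (497). Of 19 urothelial markers only 8 passed the detection filter (ELF3, FOXA1, KRT7, KRT8, KRT18, PPARG, UPK1B and UPK3B). GATA3, TP63, KRT5, KRT20 and the uroplakins UPK1A, UPK2 and UPK3A did not, so these defining markers were absent by this filter. Of markers of other cell types, 2 of 10 leukocyte, 5 of 8 endothelial, 3 of 10 fibroblast and muscle and 8 of 12 neuronal and erythroid genes passed, while CD3E, VWF, CDH5, COL1A1, COL3A1 and HBB did not. The summed linear intensity of the leukocyte list was 5457 to 5789 on miR-101 and 2817 to 3030 on control precursor arrays, and 2904 to 3572 on EZH2 siRNA and 4406 to 4791 on control siRNA arrays. Its tested members were CD68, a lysosomal glycoprotein also made outside the blood, with a difference of 1.54, and PTPRC, which was detected on no more than 2 arrays of any group (difference -0.01). The part of such cells in the results was not tested.

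EZH2 itself checks the labels of treated against control arrays within each pair, and both treatments lowered it. As both did, it cannot tell the miR-101 pair from the EZH2 siRNA pair. Its normalized log2 intensity was 7.68, 7.81 and 7.86 on miR-101 arrays, against 8.88, 8.79 and 8.36 on control precursor arrays. EZH2 siRNA arrays gave 7.36, 7.51 and 7.35, against 8.57, 8.53 and 8.76 on control siRNA arrays. In both pairs every treated array lay below every control array. The miR-101 response was -0.90 and the EZH2 siRNA response -1.22, a difference of 0.32 (95% interval -0.08 to 0.72) that was not past the threshold (limma adjusted p 0.205). The other EZH2 probe gave a difference of 0.29. The interval does not show that EZH2 fell equally, and set directly against each other the miR-101 arrays were 0.38 higher than the EZH2 siRNA arrays (adjusted p 0.0359). Without background correction, and in the authors' deposited normalized table, the difference of EZH2 was 0.40 and 0.38 and was past the threshold (adjusted p 0.0367 and 0.0424), within a range of 0.0367 to 0.440 over the alternatives for EZH2.

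The responses hardly ran together across the genome. Altogether 4579 genes (33.8% of those tested) had a difference past the threshold, an adjusted p under 0.05 in limma's moderated test: 2354 were higher (17.4%) and 2225 lower (16.4%). Of these, 996 differed at least 2-fold and 110 at least 4-fold. The miR-101 response itself was past the threshold for 6071 genes (44.9%; 23.6% up and 21.3% down) and the EZH2 siRNA response for 1419 (10.5%; 5.85% up and 4.64% down). Of the 6071, 4041 had a difference past the threshold as well. The standard deviation over genes was 0.486 for the miR-101 response, 0.220 for the EZH2 siRNA response and 0.525 for the difference, on the log2 scale. Over the 13528 genes the responses, which share no array but were normalized together, had a Pearson correlation of 0.045 and a Spearman correlation of 0.051, given as a description.

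**Figure D1:**
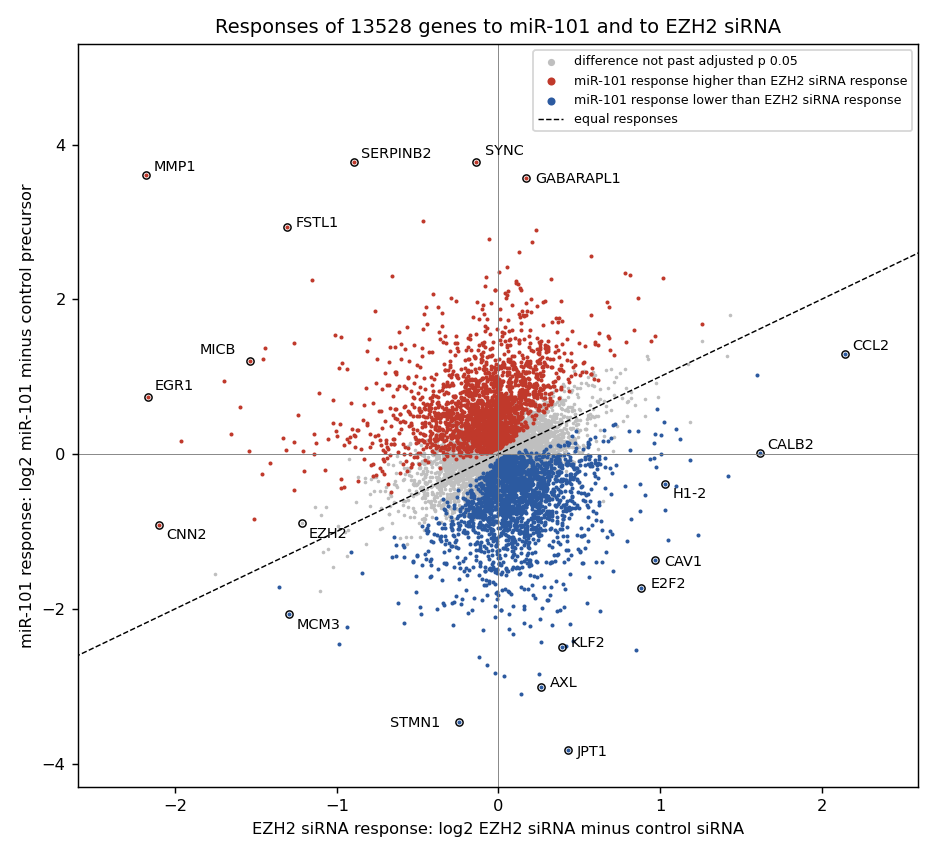
Each point is a gene, with its EZH2 siRNA response on the horizontal axis and its miR-101 response on the vertical axis, both as log2 changes against the matched control. Red points (2354) had a higher and blue points (2225) a lower miR-101 response at an adjusted p under 0.05, grey points were not past it, and the dashed line marks equal responses. The cloud is taller than it is wide, EZH2 lies near the dashed line, and MMP1 stands farthest from it.

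Most of the gap came from genes that only miR-101 moved past the threshold. Among the 4579 genes, the miR-101 response alone was past the threshold for 3419 (74.7%, 1762 higher and 1657 lower), with a median absolute difference of 0.602. Both responses were past it with opposite sign for 425, where the median absolute difference was 0.986. For 302 the EZH2 siRNA response alone was past it, with a median absolute difference of 0.479. Both were past it with the same sign for 197, of which the miR-101 response was the larger for 168 and the EZH2 siRNA response for 29. For 236 neither was. The 3 counts that need an EZH2 siRNA call moved with the settings: median scaling gave 202 of opposite sign, 187 with EZH2 siRNA alone and 70 of the same sign, and array weights 821, 472 and 509. Leaving out control siRNA replicate 2 gave 280 of opposite sign and 114 of the same sign, leaving out control siRNA replicate 3 gave 253, 183 with EZH2 siRNA alone and 106, and leaving out EZH2 siRNA replicate 1 gave 111 of the same sign.

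The difference also contains the gap between the controls, because it equals miR-101 minus EZH2 siRNA less control precursor minus control siRNA. The control precursor and control siRNA arrays differed past the threshold for 3823 genes (28.3%; 14.2% higher and 14.1% lower in control precursor). The miR-101 and EZH2 siRNA arrays did for 5671 (41.9%; 21.8% higher and 20.1% lower in miR-101). Of the 4579 genes, 2389 had no control gap past the threshold and 2190 had one. For 1534 (11.3% of genes tested, 33.5% of the 4579) the control gap was larger than the direct gap between miR-101 and EZH2 siRNA arrays. Whether such a gap is owed to the control RNAs or to the chips cannot be told apart. For genes with unequal responses the control gap, control precursor minus control siRNA, is therefore given below wherever it was larger than the direct gap, and for some others.

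The widest gap in the study was that of MMP1, and SERPINB2 of the plasminogen system followed among the named genes. MMP1, the interstitial collagenase, had log2 intensities of 11.93, 11.89 and 11.86 on miR-101 arrays, against 8.40, 8.25 and 8.21 on control precursor arrays. On EZH2 siRNA arrays it had 7.80, 7.85 and 8.15, against 10.42, 9.84 and 10.07 on control siRNA arrays. The groups of each pair did not overlap, and the treatments moved MMP1 in opposite directions. Its responses were 3.61 and -2.18, so the difference was 5.79 (SE 0.195, limma adjusted p 2.09e-07), beside a control gap of -1.83. SERPINB2, an inhibitor of urokinase, had 11.19, 11.41 and 11.09 on miR-101 arrays, against 7.52, 7.36 and 7.49 on control precursor arrays. It had 7.12, 7.11 and 7.16 on EZH2 siRNA arrays, against 8.18, 7.88 and 8.02 on control siRNA arrays. Again the arrays of each pair stood apart, high with miR-101 and low with EZH2 siRNA, and the difference was 4.67 (SE 0.129; adjusted p 5.15e-08) with a control gap of -0.57.

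Of 21 matrix protease and plasminogen genes tested, 10 were higher and 1 was lower, beside 17.4% and 16.4% of all genes, and the median difference was 0.27 against -0.0008 over all genes. Of the 21 genes 10 were lower in control precursor than in control siRNA arrays past the threshold (14.1% of all genes), and of the 11 past it 4 had no such control gap. ADAMTS1, a metalloprotease that cleaves proteoglycans, had a difference of 1.94 (miR-101 response 1.36, EZH2 siRNA response -0.58). MMP9, a gelatinase, was detected on all miR-101 and both sets of control arrays but on none with EZH2 siRNA. Its fitted level there was 1.09-fold lower than with control siRNA. MMP9 log2 intensities were 8.31, 8.33 and 8.31 on miR-101 arrays, against 6.94, 6.96 and 7.002 on control precursor arrays, and the difference was 1.47 (adjusted p 6.74e-09). The size of the MMP9 difference moved with the processing, from 1.24 to 2.23 over the alternatives, the latter without background correction. The urokinase gene PLAU (1.10, control gap -0.60) and its receptor PLAUR (0.71) were also higher. TIMP2, an inhibitor of these proteases, was the lower one at -0.40, and the list had 0 lower with median scaling or with the trend and robust prior. Among 26 matrix and integrin genes 8 were higher and 4 lower (2 lower without EZH2 siRNA replicate 2 or control siRNA replicate 3). The basement membrane collagen chain COL4A5 had a difference of 2.67 with a miR-101 response of 2.90. The dermatan sulfate epimerase DSE had 2.21, mostly from an EZH2 siRNA response of -1.60. The collagen receptor subunit ITGA2 had a difference of 1.73 beside a control gap of -1.73.

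**Figure D2:**
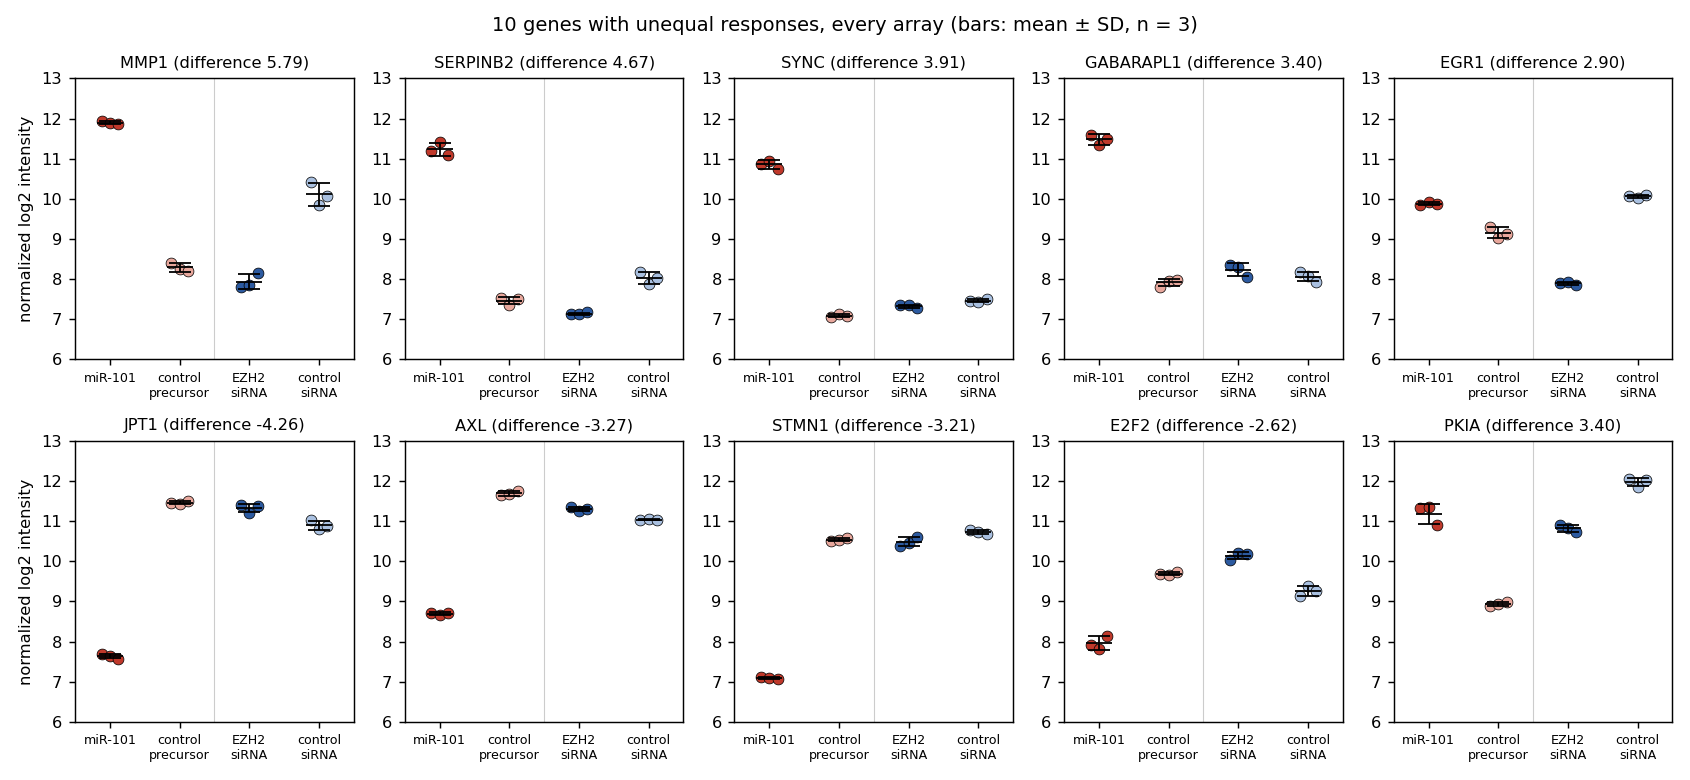
Normalized log2 intensity of 10 genes on every array (points), with the group mean and SD (bars, n = 3), in the order miR-101, control precursor, EZH2 siRNA, control siRNA. In the upper row the miR-101 arrays stand above their controls for each gene. In that row the EZH2 siRNA arrays stand below theirs for MMP1, SERPINB2 and EGR1, and slightly below for SYNC. For PKIA the miR-101 and EZH2 siRNA arrays lie close together and the controls far apart.

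Further genes with the largest positive differences included SYNC and GABARAPL1, for which the miR-101 arrays stood apart from all others. SYNC, the intermediate filament protein syncoilin, had log2 intensities of 10.87, 10.95 and 10.74 on miR-101 arrays, against 7.05, 7.11 and 7.07 on control precursor arrays. With EZH2 siRNA it had 7.34, 7.34 and 7.26, against 7.44, 7.43 and 7.49 with control siRNA. Only miR-101 arrays were high, and the difference was 3.91 (SE 0.0686; adjusted p 2.19e-09). GABARAPL1, a ubiquitin-like protein of the ATG8 family that coats autophagosomes, had 11.60, 11.34 and 11.50 on miR-101 arrays, against 7.80, 7.95 and 7.98 on control precursor arrays. EZH2 siRNA arrays (8.34, 8.31 and 8.04) overlapped control siRNA arrays (8.18, 8.06 and 7.93) for this gene. Its difference was 3.40 (adjusted p 4.64e-07) with a control gap of -0.15.

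EGR1, an immediate early transcription factor, owed its difference mainly to EZH2 siRNA. It had log2 intensities of 9.84, 9.93 and 9.86 on miR-101 arrays, against 9.30, 9.03 and 9.11 on control precursor arrays. It had 7.89, 7.92 and 7.85 on EZH2 siRNA arrays, against 10.07, 10.02 and 10.08 on control siRNA arrays. The EZH2 siRNA arrays were thus the low ones, and responses of 0.73 and -2.17 gave a difference of 2.90 (SE 0.0845; adjusted p 7.00e-08), with a direct gap of 1.99 and a control gap of -0.91.

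FSTL1, RIMOC1, PKIA, CYB5R4 and COMMD10 completed the 10 largest positive differences, and for each the control gap exceeded the direct gap. PKIA, an inhibitor of protein kinase A, had 11.32, 11.35 and 10.90 on miR-101 arrays, against 8.90, 8.94 and 8.98 on control precursor arrays. It had 10.91, 10.84 and 10.74 on EZH2 siRNA arrays, against 12.05, 11.86 and 12.03 on control siRNA arrays. The difference of 3.40 was made of a direct gap of 0.36 and a control gap of -3.04. FSTL1, a secreted glycoprotein related to follistatin, had a difference of 4.24 with a direct gap of 1.82 and a control gap of -2.42. The difference of RIMOC1, a regulator of RAB7A, was 3.48 with a control gap of -2.19. For the reductase CYB5R4 it was 2.96 with -1.95, and for COMMD10 2.84 with -2.44.

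JPT1 and AXL had the largest negative differences, and their miR-101 arrays were the low ones. JPT1, a microtubule-associated protein, had log2 intensities of 7.68, 7.63 and 7.58 on miR-101 arrays, against 11.46, 11.42 and 11.50 on control precursor arrays. On EZH2 siRNA arrays it had 11.41, 11.21 and 11.38, against 11.02, 10.80 and 10.89 on control siRNA arrays. Responses of -3.83 and 0.43 gave a difference of -4.26 (SE 0.0922; adjusted p 7.84e-09), with groups apart in both pairs. AXL, the receptor tyrosine kinase for GAS6, had 8.71, 8.66 and 8.72 on miR-101 arrays, against 11.66, 11.67 and 11.76 on control precursor arrays. AXL had 11.35, 11.25 and 11.30 on EZH2 siRNA arrays, against 11.04, 11.05 and 11.02 on control siRNA arrays. It moved down in the first pair and slightly up in the other, with a difference of -3.27 (SE 0.0499; adjusted p 1.22e-09). The AXL ligand GAS6 was lower too (-1.08).

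STMN1, which destabilizes microtubules, had 7.11, 7.10 and 7.05 on miR-101 arrays, against 10.52, 10.53 and 10.59 on control precursor arrays. It had 10.38, 10.47 and 10.60 on EZH2 siRNA arrays, against 10.78, 10.72 and 10.69 on control siRNA arrays. Both treatments lowered it without overlap, with responses of -3.46 and -0.25, and the difference was -3.21 (adjusted p 7.97e-09). A second, dim STMN1 probe gave -0.03. SUB1, a transcription coactivator, had a difference of -3.23, the actin-linked MARCKSL1 -3.09, SMCO4 -2.91 and the Mediator subunit MED20 -2.69. The metallothioneins MT1X (-2.90, control gap 1.00) and MT1A (-2.87), small zinc- and copper-binding proteins of near-identical sequence whose probes may bind several of them, moved together. KLF2, a transcription factor reported as repressed by EZH2, had 9.09, 9.15 and 9.12 on miR-101 arrays, against 11.55, 11.53 and 11.76 on control precursor arrays. With EZH2 siRNA it had 11.46, 11.53 and 11.43, against 11.17, 10.94 and 11.13 with control siRNA. KLF2 was low with miR-101 and slightly high with EZH2 siRNA, a difference of -2.88 (adjusted p 2.37e-07).

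Among 41 regulators of actin and microtubules, 12 were higher and 8 lower, beside 17.4% and 16.4% of all genes. The median difference was 0.03. The ezrin-family gene RDX (2.36, control gap -2.29), tropomyosin TPM2 (1.47) and smooth muscle actin ACTA2 (1.39) were higher, while STMN3 (-1.41), the GTPase RAC1 (-0.97, control gap 0.87) and profilin PFN1 (-0.59) were lower.

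**Figure D3:**
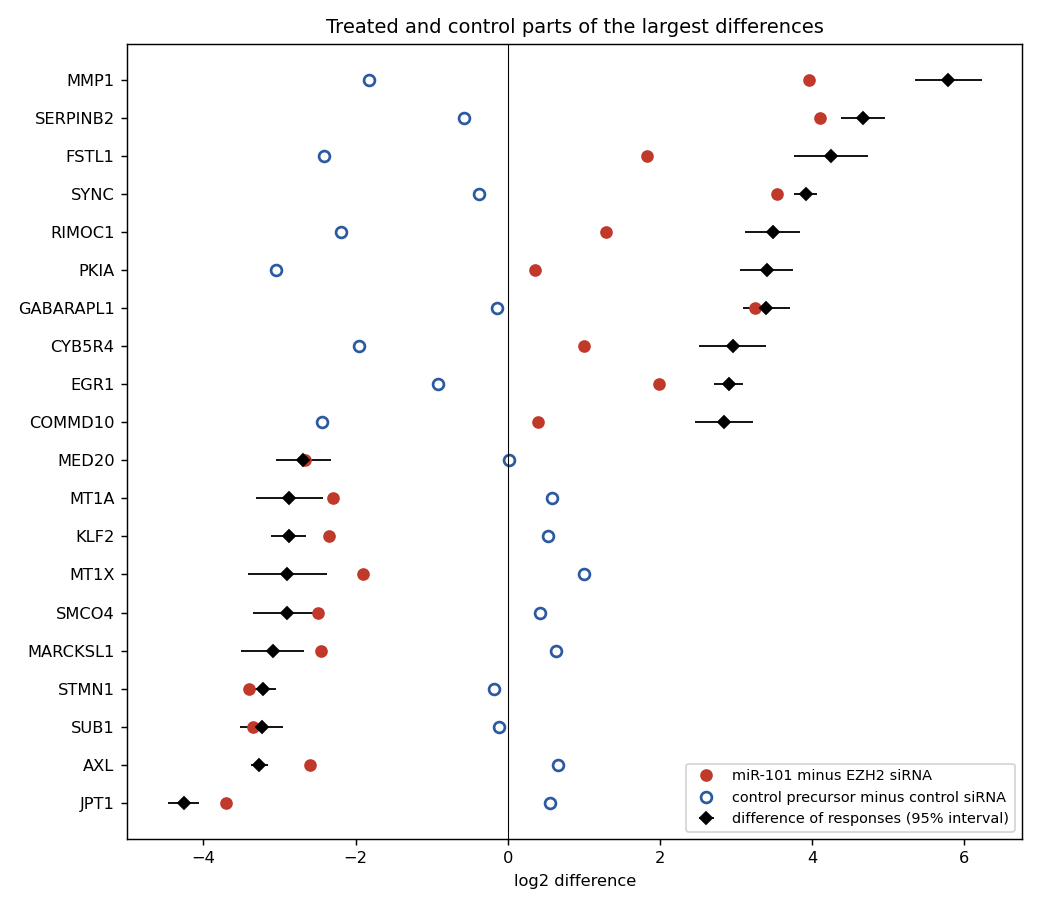
The 10 largest positive and 10 largest negative differences of responses (black diamonds, 95% intervals), with miR-101 minus EZH2 siRNA (filled red) and control precursor minus control siRNA (open blue), all in log2 units. For PKIA the open circle lies at -3.04 and the filled one at 0.36. For GABARAPL1, STMN1, SUB1 and MED20 the filled circle lies close to the diamond.

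DNA replication genes were the list with the largest gap, and by the medians it lay almost wholly in the miR-101 arm. Of 50 S phase and replication genes tested 40 were lower and 1 was higher, beside 16.4% and 17.4% of all genes. The median difference was -1.15, with a median miR-101 response of -1.21, a median EZH2 siRNA response of -0.01 and a median control gap of 0.01. For 48 of the 50 the miR-101 and control precursor arrays did not overlap (53.6% of all genes), and for 25 the EZH2 siRNA and control siRNA arrays did not (32.6%). Past the threshold, miR-101 raised 1 and lowered 46 of the genes, beside 23.6% and 21.3% of all genes. EZH2 siRNA raised 6 and lowered 7, beside 5.85% and 4.64%, so its median near 0 hides changes both ways. Of the 41 genes with a difference past the threshold, 30 had no control gap past it. In bulk RNA, fewer cells in S phase and less of these RNAs per cell cannot be told apart.

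E2F2, a transcription factor that drives entry into S phase, had log2 intensities of 7.92, 7.82 and 8.15 on miR-101 arrays, against 9.68, 9.67 and 9.74 on control precursor arrays. It had 10.04, 10.21 and 10.17 on EZH2 siRNA arrays, against 9.13, 9.37 and 9.27 on control siRNA arrays. The treatments moved E2F2 apart, down with miR-101 and up with EZH2 siRNA, and the difference was -2.62 (SE 0.123; adjusted p 1.01e-06). Its relative E2F1 had -1.75 (responses -1.22 and 0.54, control gap 0.85). MCM10, which helps the replicative helicase to fire, had 7.79, 7.68 and 7.72 on miR-101 arrays, against 9.65, 9.67 and 9.82 on control precursor arrays. MCM10 had 9.67, 9.63 and 9.75 on EZH2 siRNA arrays, against 9.40, 9.32 and 9.13 on control siRNA arrays, a difference of -2.39 (adjusted p 6.04e-07).

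The helicase subunit MCM4 had 9.67, 9.71 and 9.56 on miR-101 arrays, against 11.57, 11.57 and 11.58 on control precursor arrays. MCM4 had 11.45, 11.46 and 11.46 on EZH2 siRNA arrays, against 11.67, 11.76 and 11.81 on control siRNA arrays, so it fell in both arms and its difference was -1.64 (adjusted p 2.37e-07). MCM3, a helicase subunit as well, was the list member that EZH2 siRNA lowered most: responses of -2.07 and -1.30 left a difference of -0.78. The sliding clamp PCNA had a difference of -1.72, the flap nuclease FEN1 -1.80, the clamp loader subunit RFC4 -1.67 and the polymerase epsilon subunit POLE2 -2.39. POLD3, a subunit of polymerase delta, was the one higher gene (0.84), with a control gap of -1.33. UNG, which removes uracil from DNA, was undetected on all 3 miR-101 arrays by the probe used. Its fitted level there was 7.11-fold lower than with control precursor, which is no limit set by detection. Its difference was -2.81 (adjusted p 5.31e-06), and a second UNG probe gave -0.11.

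Promoters of this list are of interest because E2F factors bind near the start of many replication genes. The 8-letter E2F motif TTTCCCGC or TTTGGCGC was searched on both strands in RefSeq promoters of GRCh38.p14, from 250 bases before to 50 after the start, for the 9458 of 13528 genes that matched an entry. It was in 19 of 41 matched list members (46.3%) and in 16 of 34 matched lower ones (47.1%). It was in 3.76% of all matched promoters and in 5.71% of those of all lower genes. A match is a run of letters and not a shown binding site. E2F2 (chr1:23531184-23531483, minus strand) and POLE2 (chr14:49688165-49688464, minus strand) are printed as members with large differences, 5′ to 3′ on the strand of the gene, with the motif or its reverse complement in capitals, starting 42 and 5 bases before the start.
E2F2: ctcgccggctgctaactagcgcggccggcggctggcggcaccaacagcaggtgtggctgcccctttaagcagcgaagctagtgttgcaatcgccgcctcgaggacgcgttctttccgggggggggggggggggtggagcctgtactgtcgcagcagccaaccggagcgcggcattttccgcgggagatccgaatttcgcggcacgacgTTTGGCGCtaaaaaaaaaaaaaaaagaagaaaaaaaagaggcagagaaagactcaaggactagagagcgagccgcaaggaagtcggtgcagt
POLE2: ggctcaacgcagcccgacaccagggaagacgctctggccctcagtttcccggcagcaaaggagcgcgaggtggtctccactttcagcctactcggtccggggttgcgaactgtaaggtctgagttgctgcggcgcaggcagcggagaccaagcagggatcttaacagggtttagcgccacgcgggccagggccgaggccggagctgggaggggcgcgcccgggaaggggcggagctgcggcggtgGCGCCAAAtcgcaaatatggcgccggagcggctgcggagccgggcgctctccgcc

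Mitosis genes went the same way, but with a control gap. Of 47 G2/M genes tested 33 were lower and 0 higher, beside 16.4% and 17.4% of all genes, with a median difference of -0.77. The median miR-101 response was -0.77, the median EZH2 siRNA response -0.03 and the median control gap -0.29. Past the threshold, 22 of the genes were lower in control precursor than in control siRNA arrays (14.1% of all genes). A gap of that sign makes the difference smaller than the direct gap, whose median was -1.05. CENPF, a kinetochore protein, had log2 intensities of 7.59, 7.43 and 7.58 on miR-101 arrays, against 9.61, 9.66 and 9.38 on control precursor arrays. CENPF had 9.45, 9.67 and 9.16 on EZH2 siRNA arrays, against 9.25, 9.53 and 9.44 on control siRNA arrays, which overlapped, and its difference was -2.03 (adjusted p 3.91e-05). Cyclin B1 (CCNB1) had a difference of -1.75, the checkpoint protein MAD2L1 -1.87, the kinase CDK1 -1.55 and the anaphase activator CDC20 -1.11. The cell cycle homology motif TTTGAAA, on either strand, was in 14 of 41 matched G2/M promoters (34.1%) and in 3.67% of all matched promoters.

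**Figure D4:**
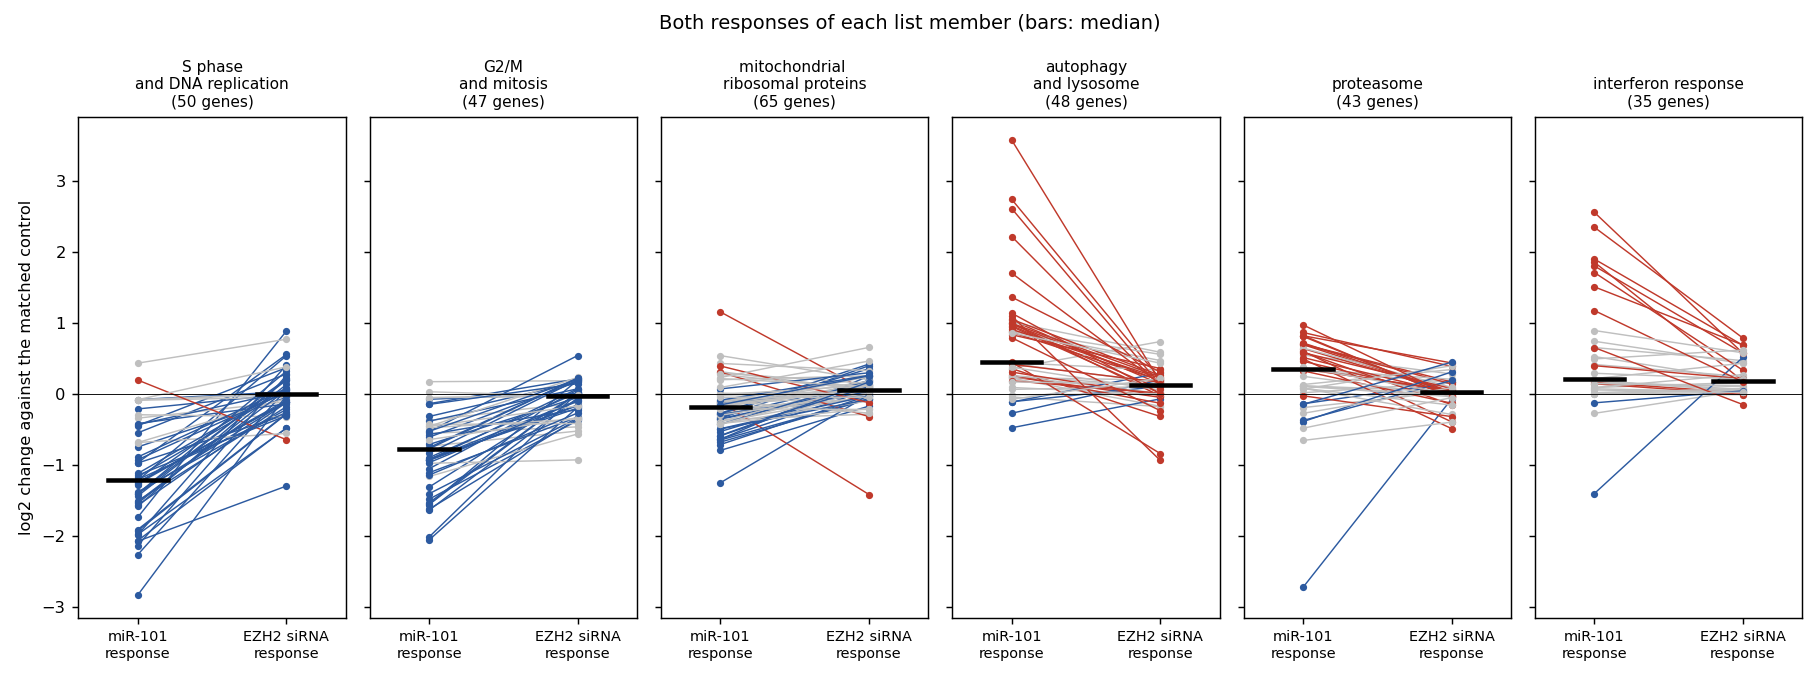
Each line joins the miR-101 response of a gene (left) to its EZH2 siRNA response (right), as log2 change against the matched control, for 6 gene lists. Red lines had a higher and blue lines a lower miR-101 response at an adjusted p under 0.05, grey lines were not past it, and black bars are medians. The replication median lies at -1.21 on the left and -0.01 on the right.

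Lysosome and autophagy genes ran the other way. Of 48 tested 26 were higher and 4 lower, beside 17.4% and 16.4% of all genes. The median difference was 0.40, and the medians of the miR-101 and EZH2 siRNA responses were 0.44 and 0.13. Of the 30 genes past the threshold in either direction, 12 had no control gap past it. ATP6AP1, which helps assemble the proton pump of lysosomes, had 12.47, 12.47 and 12.49 on miR-101 arrays, against 9.78, 9.76 and 9.69 on control precursor arrays. ATP6AP1 had 12.10, 12.26 and 11.99 on EZH2 siRNA arrays, against 11.79, 11.99 and 11.95 on control siRNA arrays. The control precursor arrays were the low ones, and the difference of 2.53 came with a control gap of -2.17. The lysosomal membrane protein LAMP2 likewise had a difference of 2.48 and a control gap of -1.76, and its second probe gave 1.15.

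Members with smaller or opposite control gaps were higher too. The autophagy protein WIPI1 had a difference of 1.56 (control gap -0.43). For the sialidase NEU1 (1.05), the peptidase TPP1 (1.13) and the protective protein CTSA (1.02) the control gap had the opposite sign, 0.86, 0.83 and 0.51. The cholesterol exporter NPC1 (2.03, control gap -1.02) and cathepsin CTSB (1.29) owed part of it to EZH2 siRNA responses of -0.94 and -0.84. ATG3, which conjugates ATG8 proteins to lipid, was lower (-0.47, control gap 0.25).

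Coordinated lysosomal expression and regulation is the CLEAR element TCACGTGA, a motif of lysosomal promoters. It was in 5 of 34 matched list promoters (14.7%) and in 2.04% of all matched promoters, but in 1 of the 19 matched higher members. CTSA is that member and its promoter is printed for that reason (chr20:45891085-45891384, plus strand, motif in capitals from 26 bases before the start).
CTSA: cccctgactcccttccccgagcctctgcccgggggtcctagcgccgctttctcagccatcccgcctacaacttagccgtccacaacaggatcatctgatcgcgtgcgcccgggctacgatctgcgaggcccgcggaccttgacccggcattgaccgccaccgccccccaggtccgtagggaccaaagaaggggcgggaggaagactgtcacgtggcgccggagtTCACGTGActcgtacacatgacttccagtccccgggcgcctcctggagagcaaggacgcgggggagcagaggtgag

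The proteasome list held more higher than lower genes. Of 43 tested 20 were higher and 5 lower, beside 17.4% and 16.4% of all genes. The median difference was 0.30 and the median control gap 0.03, and 18 of the 25 had no control gap past the threshold. With median scaling in place of quantile normalization 11 were higher. PSMD7, a lid subunit, had log2 intensities of 11.83, 11.75 and 11.68 on miR-101 arrays, against 11.07, 10.999 and 11.04 on control precursor arrays. PSMD7 had 11.65, 11.55 and 11.55 on EZH2 siRNA arrays, against 11.53, 11.61 and 11.51 on control siRNA arrays, an overlap. Its difference was 0.68, with a direct gap of 0.17 and a control gap of -0.51. The activator PSME4 (1.00) and the base subunits PSMC1 (0.99) and PSMD2 (0.98) were the highest. POMP, which assembles the core particle, was far off the rest at -2.65 (adjusted p 5.32e-06). It had 10.41, 10.01 and 10.33 on miR-101 arrays, against 12.84, 12.87 and 13.19 on control precursor arrays, and no more than 12.89 or less than 12.65 on any siRNA array.

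Among nuclear genes for mitochondrial proteins more were lower than higher, and most did not pass the threshold. Of 65 mitochondrial ribosomal proteins tested 24 were lower and 4 higher, beside 16.4% and 17.4% of all genes. Their median difference was -0.31, with median responses of -0.18 and 0.06. MRPL42 (-1.24) and MRPL12 (-0.89, control gap 0.45) of the large subunit and MRPS9 (-0.75) of the small one were among the lower genes. MRPL19 (1.13, control gap -0.84) and MRPS22 (0.52) were higher. MRPL20 was higher (1.30) through an EZH2 siRNA response of -1.42. Cytosolic ribosomal proteins, set beside them, had 7 lower and 2 higher of 56 (16.1% past the threshold, 33.8% over all genes), with a median of -0.04. Their higher count was 1 without miR-101 replicate 1, control precursor replicate 1 or 2, EZH2 siRNA replicate 1 or 2, or control siRNA replicate 2.

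Of 46 genes of mitochondrial transcription and the respiratory chain 15 were lower and 2 higher, beside 16.4% and 17.4% of all genes. Their median difference was -0.28. TFB2M, which opens mitochondrial promoters, had 8.29, 8.34 and 8.02 on miR-101 arrays, against 10.79, 10.94 and 10.80 on control precursor arrays. TFB2M had 10.15, 10.12 and 10.18 on EZH2 siRNA arrays, against 10.34, 10.26 and 10.20 on control siRNA arrays, and the difference was -2.51 (adjusted p 7.12e-07). The ATP synthase subunit ATP5F1B had -1.61, and cytochrome c (CYCS) had -1.07 with a control gap of 1.05. TFB1M (0.55) and NDUFV2 (0.32), with control gaps of -0.55 and -0.90, were the higher ones. One of them was left without miR-101 replicate 1 or 2, control precursor replicate 1 or 2, EZH2 siRNA replicate 1 or 2, or control siRNA replicate 2.

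Interferon response genes that differed were mostly higher with miR-101. Of 35 tested 12 were higher and 2 lower, beside 17.4% and 16.4% of all genes. The median difference was 0.14, and both median responses were positive at 0.22 and 0.18. IRF9, the DNA-binding subunit of the interferon-activated complex ISGF3, had 9.87, 10.01 and 9.88 on miR-101 arrays, against 7.35, 7.36 and 7.39 on control precursor arrays. IRF9 had 8.95, 8.82 and 8.76 on EZH2 siRNA arrays, against 8.13, 8.37 and 8.32 on control siRNA arrays. Both treatments raised it, by 2.55 and 0.57 on the log2 scale, and the difference was 1.98 (SE 0.0963; adjusted p 1.16e-06) with a control gap of -0.91. IFI6, an interferon-induced mitochondrial protein, had 10.96, 10.75 and 11.22 on miR-101 arrays, against 8.58, 8.52 and 8.79 on control precursor arrays. IFI6 had 10.30, 10.16 and 10.27 on EZH2 siRNA arrays, against 9.57, 9.41 and 9.39 on control siRNA arrays, a difference of 1.56 (adjusted p 9.05e-05) with a direct gap of 0.73 and a control gap of -0.83.

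The guanylate-binding protein GBP2 (1.67), the exonuclease ISG20 (1.38), the ubiquitin-like modifier ISG15 (1.23) and STAT2 (1.00), another subunit of ISGF3, were higher as well. IRF1, a transcription factor of the same family as IRF9, was lower at -1.92 with a control gap of 1.71. The interferon-stimulated response element, GAAA and GAAA parted by 2 letters of any kind, was searched on both strands. It was in 16 of 29 matched list promoters (55.2%), in 6 of 10 matched higher members and in 2.57% of all matched promoters. The promoter of IFI6 (chr1:27672143-27672442, minus strand) holds it in 3 separate runs, in capitals, the first from 156 bases before the start.
IFI6: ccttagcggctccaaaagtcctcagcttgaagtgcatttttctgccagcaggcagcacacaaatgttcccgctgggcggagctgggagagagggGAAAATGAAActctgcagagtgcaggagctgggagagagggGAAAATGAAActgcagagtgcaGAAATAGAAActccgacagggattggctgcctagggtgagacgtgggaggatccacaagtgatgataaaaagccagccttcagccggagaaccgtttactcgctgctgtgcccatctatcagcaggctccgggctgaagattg

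The MHC class I and NKG2D ligand list had no lower gene past the threshold. Of 20 genes of MHC class I and NKG2D ligands 8 were higher and 0 lower, beside 17.4% and 16.4% of all genes. The median difference was 0.17. MICB, a stress-induced ligand of the NKG2D receptor, had 10.16, 9.98 and 10.20 on miR-101 arrays, against 8.91, 8.90 and 8.92 on control precursor arrays. MICB had 7.53, 7.54 and 7.39 on EZH2 siRNA arrays, against 9.01, 9.09 and 8.97 on control siRNA arrays. The arms went in opposite directions with controls at a like level (control gap -0.11), and the difference was 2.74 (SE 0.0868; adjusted p 1.35e-07). Class I genes HLA-B and HLA-E (0.96 each), which share sequence with other class I genes, the peptide transporter TAP1 (0.80) and the ligand ULBP2 (0.46) were also higher. NCR3LG1, a ligand of another natural killer receptor, went the other way (-2.64), with a direct gap of -0.80 and a control gap of 1.84.

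In the sterol synthesis and stress response lists more genes were higher than lower. The control gap exceeded the direct gap for 6 of 16 and 5 of 15 past the threshold, near the 33.5% over all genes past it. Of 36 genes of the cholesterol and fatty acid pathways 14 were higher and 2 lower, beside 17.4% and 16.4% of all genes. The median difference was 0.34 and the median control gap -0.19. Past the threshold, 14 of the genes were lower in control precursor than in control siRNA arrays (14.1% of all genes). HMGCS1, an early enzyme of the pathway, had 12.26, 12.25 and 12.24 on miR-101 arrays, against 10.95, 10.97 and 10.89 on control precursor arrays. HMGCS1 had 11.74, 11.71 and 11.67 on EZH2 siRNA arrays, against 11.35, 11.48 and 11.40 on control siRNA arrays, so both arms rose and the difference was 1.02 (adjusted p 1.24e-06). SC5D (2.36) and IDI1 (2.14) had larger ones, and INSIG1, which retains the sterol sensor SCAP, had 1.15 while SCAP had -0.56. The sterol element TCACNCCAC was in 1 of 28 matched promoters of the list and in 1.05% of all.

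Among 29 genes of the unfolded protein and integrated stress response 13 were higher and 2 lower, beside 17.4% and 16.4% of all genes. The median difference was 0.24 and the median control gap -0.02. DDIT3 (CHOP), a transcription factor of prolonged stress, had a difference of 2.17, and the chaperone cofactor DNAJB9 had 1.49 with responses of 2.31 and 0.81. CEBPB, a bZIP factor, had 13.77, 13.61 and 13.72 on miR-101 arrays, against 13.12, 13.24 and 13.20 on control precursor arrays. CEBPB had 12.56, 12.52 and 12.52 on EZH2 siRNA arrays, against 13.26, 13.04 and 13.12 on control siRNA arrays, moving up and down, with a difference of 1.12 (adjusted p 1.11e-05). CRELD2, a protein of the endoplasmic reticulum, had a difference of 1.08 beside a control gap of -0.99.

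Polycomb genes and reported targets of both agents fell on either side, beside 17.4% higher and 16.4% lower of all genes. Of 12 PRC2 genes tested 5 were lower and 2 higher (1 higher without control precursor replicate 2, EZH2 siRNA replicate 1 or 2, or control siRNA replicate 3), with a median of -0.16. PHF19, which brings the complex to chromatin, had 8.05, 7.999 and 8.20 on miR-101 arrays, against 9.47, 9.39 and 9.59 on control precursor arrays. PHF19 had 9.91, 9.76 and 9.55 on EZH2 siRNA arrays, against 9.47, 9.59 and 9.63 on control siRNA arrays, an overlap, and its difference was -1.58, with a second probe at -0.55. The histone chaperone RBBP7 had -1.34, AEBP2 -0.58 and EED -0.30, while JARID2 had 0.74. For PRC1 there were 5 lower and 3 higher of 19, with KDM2B, which leads a variant complex to CpG islands, at -1.49 (control gap 0.75). CBX6, a reader of the H3 lysine 27 mark, had -1.66 with opposite responses (-0.84 and 0.82), a direct gap of 0.15 and a control gap of 1.81.

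Of 23 genes reported as repressed by EZH2 in cancer, 4 were higher and 5 lower (8 lower without EZH2 siRNA replicate 3). Over all genes 17.4% were higher and 16.4% lower. The median difference of the list was -0.04, beside -0.0008 over all genes. KLF2 is above, and the cell cycle inhibitor CDKN1A had -1.19 with responses of -0.69 and 0.50 and a control gap of 1.06. The WNT antagonist SFRP1 had 0.61 with a control gap of -0.84. Of 35 reported miR-101 targets 11 were lower and 4 higher (2 higher with median scaling), with a median of -0.03, so most had no difference past the threshold. CERS6, a ceramide synthase, had 9.79, 9.78 and 9.73 on miR-101 arrays, against 11.14, 11.14 and 10.96 on control precursor arrays. CERS6 had 10.90, 10.94 and 10.81 on EZH2 siRNA arrays, against 10.92, 10.99 and 10.92 on control siRNA arrays, an overlap, with a difference of -1.25 (adjusted p 3.59e-06). RAB5A (-1.71) and the chromatin remodeller subunit ARID1A (-1.66) were lower, and CTNNB1 was higher (1.32, control gap -1.67). In the small RNA pathway 5 of 14 were lower and 1 higher, among them the Dicer partner PRKRA (-1.60) and TNRC6B (-0.67), a partner of Argonaute, with the helicase DDX5 as the higher one (0.74, control gap -0.41).

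**Figure D5:**
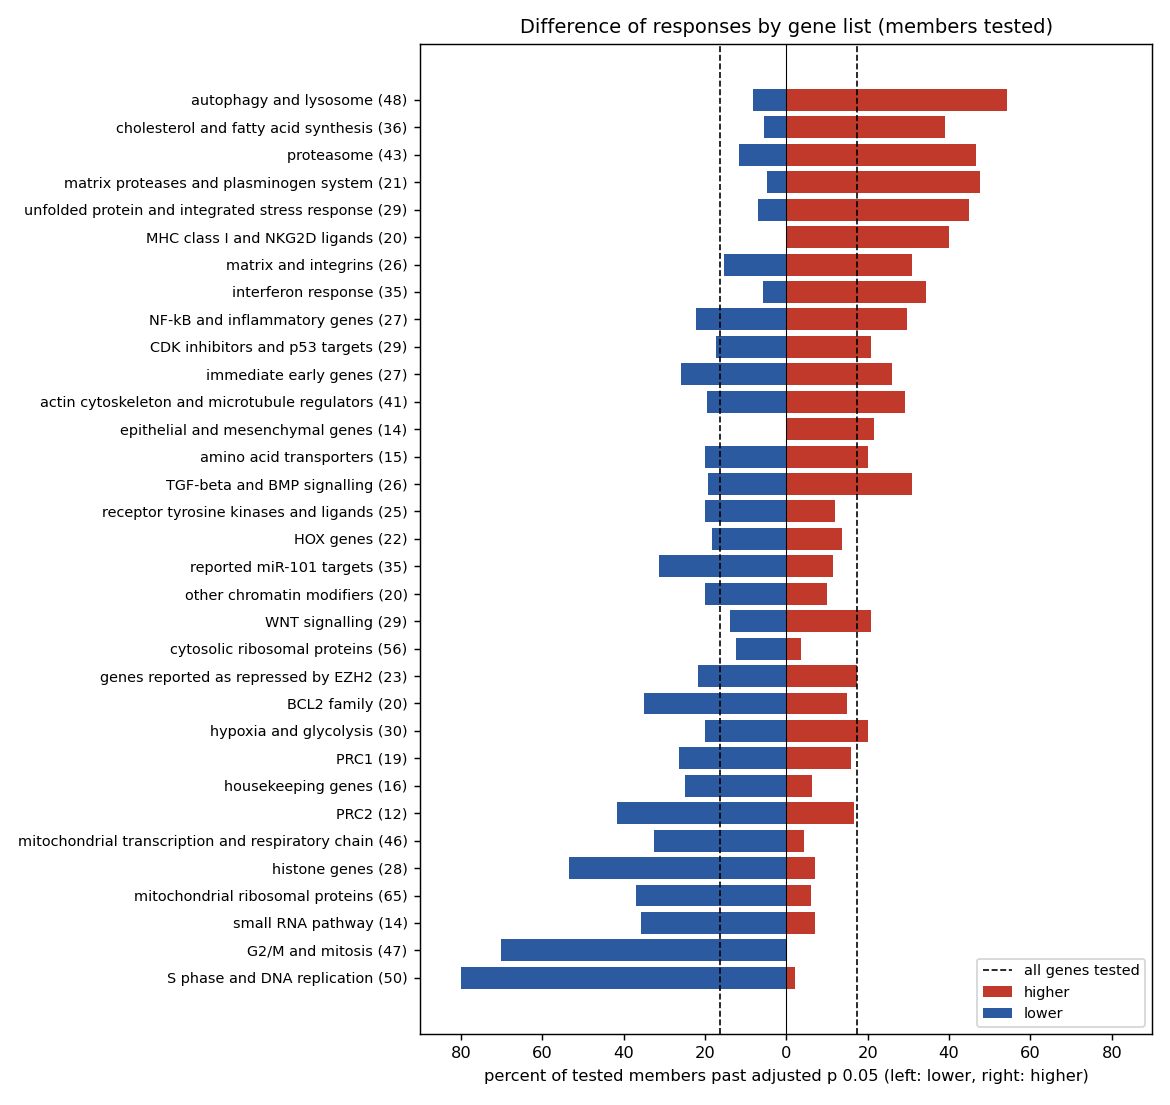
Percent of the tested members of each list with a difference of responses past an adjusted p of 0.05, higher to the right (red) and lower to the left (blue), ordered by the median difference, with the number tested in brackets. Dashed lines mark all genes tested (17.4% higher and 16.4% lower). Replication and mitosis genes reach farthest to the left and autophagy and lysosome genes farthest to the right.

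Histone genes were lower beside a wide control gap. Of 28 tested 15 were lower and 2 higher, beside 16.4% and 17.4% of all genes, with a median of -0.28. Past the threshold, 15 were higher in control precursor than in control siRNA arrays (14.2% of all genes). Set directly against EZH2 siRNA arrays, miR-101 arrays had 12 of the genes higher and 8 lower, beside 21.8% and 20.1% of all genes. The median direct gap was 0.07, and for 9 of the 17 genes with a difference past the threshold the control gap exceeded the direct gap. The count of genes with a higher difference was 1 without miR-101 replicate 1 or 2, control precursor replicate 2, EZH2 siRNA replicate 2 or 3, or any one control siRNA replicate. The variants H2AX (-2.01, control gap -0.13) and H2AZ1 (-1.29, -0.22) were low on miR-101 arrays alone. The linker histone H1-2 had 10.14, 9.72 and 10.26 on miR-101 arrays, against 10.35, 10.34 and 10.61 on control precursor arrays. H1-2 had 8.77, 8.42 and 8.78 on EZH2 siRNA arrays, against 7.67, 7.59 and 7.61 on control siRNA arrays, all siRNA arrays being lower than all precursor arrays. Its difference was -1.42, with a control gap of 2.81. Replication-dependent histone genes are near-identical, and their probes may bind more than 1 of them.

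Inflammatory and immediate early genes split both ways, beside 17.4% higher and 16.4% lower of all genes. Of 27 NF-kB and inflammatory genes 8 were higher and 6 lower, with a median of 0.12 and a median control gap of 0.36. The cytokine IL11 had 9.42, 9.64 and 9.24 on miR-101 arrays, against 7.28, 7.14 and 7.09 on control precursor arrays. IL11 had 7.69, 7.79 and 7.78 on EZH2 siRNA arrays, against 7.40, 7.43 and 7.46 on control siRNA arrays, up in both arms, with a difference of 1.94 (adjusted p 5.15e-06). The chemokine CXCL8 had 1.75 with responses of 0.51 and -1.24. NFKBIA, the inhibitor that NF-kB itself induces, had -1.99 with a direct gap of 0.38 and a control gap of 2.38. Among 27 immediate early genes 7 were higher (4 without control siRNA replicate 3) and 7 lower, with SRF at -1.26 (control gap 0.72) and KLF6 at 1.35 beside EGR1 and KLF2.

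The remaining lists were mixed, beside 17.4% higher, 16.4% lower and 33.8% past the threshold either way over all genes. Signalling genes of the TGF-beta and BMP pathways had 8 higher and 5 lower of 26 (50% past the threshold). Among them were TGFBR2, the type II receptor, at 1.57 and SMAD3, its transcription factor, at -1.57 (control gap 0.97). The WNT list had 6 higher and 4 lower of 29 (34.5%). Receptor tyrosine kinases with their ligands had 3 higher and 5 lower of 25 (32%), where EREG, a ligand of the EGF receptor, had 1.69. CDK inhibitors and p53 targets had 6 higher and 5 lower of 29 (37.9%), and the BCL2 family 3 and 7 of 20 (50%). HOX genes had 3 and 4 of 22 (31.8%), and other chromatin modifiers 2 and 4 of 20 (30%). Hypoxia and glycolysis genes had 6 and 6 of 30 (40%). Their higher count was 3 without miR-101 replicate 2, control precursor replicate 3, EZH2 siRNA replicate 2 or control siRNA replicate 2 or 3. Epithelial and mesenchymal genes had 3 higher and 0 lower of 14 (21.4%), with CLDN1, a tight junction protein, at 2.49. Urothelial markers had 0 higher and 3 lower of 8 (37.5%), led by the epithelial factor ELF3 at -1.19. All 3 were higher in control precursor than in control siRNA arrays past the threshold, and for 2 that gap exceeded the direct gap. Of 16 housekeeping genes 4 were lower and 1 higher (31.2%), among the lower ones PPIA (-2.05), an isomerase that is used as a reference gene. The higher count was 2 without miR-101 replicate 3, and 0 without miR-101 replicate 1 or 2, control precursor replicate 2 or 3, EZH2 siRNA replicate 1 or 3, or control siRNA replicate 2 or 3.

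For 200 genes with a higher and 225 with a lower difference the responses were both past the threshold and opposite in sign. Besides MMP1, FSTL1, EGR1 and MICB these included KDELR3, a receptor that returns proteins to the endoplasmic reticulum (responses 1.37 and -1.44, difference 2.81), and RCAN1, an inhibitor of calcineurin (1.43 and -1.26, difference 2.69). A second KDELR3 probe gave 1.22, and other RCAN1 probes gave 2.34 and 0.02. In the other direction, beside E2F2 and CBX6, CAV1, the coat protein of caveolae, had 7.92, 8.03 and 7.81 on miR-101 arrays, against 9.43, 9.39 and 9.06 on control precursor arrays. CAV1 had 9.26, 9.03 and 9.12 on EZH2 siRNA arrays, against 7.998, 8.27 and 8.23 on control siRNA arrays. Low arrays were those with miR-101 and control siRNA, and the difference was -2.35 (adjusted p 7.00e-06) with a control gap of 1.13. CMTM4, a membrane partner of PD-L1, had -2.28 with a direct gap of -0.69 and a control gap of 1.59. Further genes whose control gap exceeded the direct one were UNKL (-2.47, control gap 2.19, second probe 0.03) and the semaphorin receptor PLXNA1 (-2.22, control gap 1.25).

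Some of the gap belonged to EZH2 siRNA alone. PTPN1, a tyrosine phosphatase, had 10.71, 10.38 and 10.52 on miR-101 arrays, against 10.35, 10.48 and 10.01 on control precursor arrays, which overlapped. PTPN1 had 8.49, 8.39 and 8.10 on EZH2 siRNA arrays, against 9.81, 10.02 and 10.12 on control siRNA arrays, and was low there alone, with a difference of 1.91 (adjusted p 0.000119). The kinase HIPK2 (1.58) and AP2M1, a subunit of the clathrin adaptor (1.42), had the same form. CALB2, a calcium-binding protein, had a difference of -1.60 from an EZH2 siRNA response of 1.62, with a direct gap of -0.11 and a control gap of 1.49. ADGRL1, an adhesion receptor, had -1.27 with a control gap of 0.77. RN7SK, the RNA that holds the elongation factor P-TEFb inactive, had -1.71 (SE 0.488; adjusted p 0.0228) with a control gap of 1.66. It was not past the threshold without control precursor replicate 3 (adjusted p 0.0508), EZH2 siRNA replicate 3 (0.0508), or control siRNA replicate 2 (0.0526) or 3 (0.0561), and the adjusted p ranged from 0.00315 to 0.0561 over the alternatives for RN7SK. The amino acid transporter SLC7A5 also belonged here (-1.26, control gap 0.95). Its list had 3 higher and 3 lower of 15 (40% past the threshold, 33.8% over all genes). The lower count was 1 without control precursor replicate 1 or 2 or control siRNA replicate 2.

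Where both treatments moved a gene one way and EZH2 siRNA moved it more, the size differed. The chemokine CCL2 had 9.41, 9.19 and 9.19 on miR-101 arrays, against 7.85, 8.12 and 7.92 on control precursor arrays. CCL2 had 10.41, 10.25 and 10.48 on EZH2 siRNA arrays, against 7.96, 8.42 and 8.31 on control siRNA arrays. All treated arrays were above their controls, and responses of 1.30 and 2.15 left a difference of -0.85 (adjusted p 0.00444). CNN2, an actin-binding calponin, had responses of -0.91 and -2.10, a difference of 1.19, with a second probe at 0.18. GLOD4 (1.21) and WDR36 (0.79) were further examples.

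A part of the miR-101 response was matched by EZH2 knockdown. For 538 genes both responses passed the threshold and had one sign (329 up and 209 down), and for 197 of them so did the difference. For 286 (185 up and 101 down) the 95% interval of the difference lay within 0.5 either way on the log2 scale. That number was 126 with median scaling and 650 with array weights. It was 162 and 185 without EZH2 siRNA replicate 1 and 2, and 172, 162 and 143 without control siRNA replicate 1, 2 and 3. An interval within 0.5 was common, since 7658 of the 13528 genes had one whatever their responses.

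MYLIP, a ubiquitin ligase that removes the LDL receptor, was raised by both treatments. It had 10.30, 10.45 and 10.26 on miR-101 arrays, against 9.49, 9.31 and 9.45 on control precursor arrays. EZH2 siRNA arrays gave 10.29, 10.24 and 10.28 for MYLIP, against 9.39, 9.25 and 9.24 on control siRNA arrays. Treated arrays were high in both pairs, the responses were 0.92 and 0.98, and the difference was -0.05 (SE 0.0896). DHRS3, which reduces retinal, had responses of 1.17 and 1.17, ID3, an inhibitor of bHLH factors, 0.80 and 0.82, HPCAL1, a calcium sensor, 0.85 and 0.79, the mitochondrial reductase DECR1 0.73 and 0.77, and CFAP300 0.77 and 0.71.

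The GTPase RALA was lowered by both, with 10.60, 10.53 and 10.51 on miR-101 arrays, against 11.24, 11.20 and 11.20 on control precursor arrays. RALA had 10.17, 10.13 and 10.10 on EZH2 siRNA arrays, against 10.78, 10.61 and 10.78 on control siRNA arrays, and the difference was -0.07 (SE 0.0656). The cohesin subunit STAG1 had responses of -0.77 and -0.68, MTFP1, which acts in mitochondrial fission, -0.68 and -0.67, and the small ribosomal subunit protein RPS23 -0.60 and -0.59. DCBLD2 had -0.68 and -0.79, and JADE3, part of a histone acetyltransferase complex, -0.62 and -0.65. The difference of DCBLD2 moved with the processing, to -0.30 without background correction and 0.26 with median scaling, beside 0.12.

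For 177 genes the difference was past the threshold although the gene was undetected on all arrays of at least 1 group. TM4SF19, a tetraspanin-like membrane protein, had 9.57, 9.72 and 9.86 on miR-101 arrays, against 8.02, 7.78 and 8.29 on control precursor arrays. It was undetected on EZH2 siRNA arrays, where its fitted level was 1.36-fold lower than with control siRNA, and its fitted difference was 2.13. TYMSOS, an RNA antisense to the thymidylate synthase gene, was undetected with miR-101, at least 2.3-fold lower than with control precursor (difference -1.29). CSF2, a growth factor of myeloid cells, was undetected on control siRNA arrays, and EZH2 siRNA arrays were at least 1.02-fold higher (difference -1.08, control gap 1.08). Without background correction the differences of TYMSOS and CSF2 were -2.15 and -2.01. ANXA7 was bright and yet mostly without a detection call, for a reason not given in the sources used here, so no bound is given for its difference of 2.05 (control gap -1.33).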

How the data were processed

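RNA of UM-UC-3 cells was hybridised to Illumina bead arrays of 1 colour, 3 for each of 4 groups taken from the sample titles. The deposited values were the raw AVG_Signal intensity of each probe, not yet normalized, beside the detection p-value that BeadStudio gave every probe, per the file headers. No source used here names the version. A normalized intensity table that the authors deposited was the raw signal after quantile normalization (largest deviation 3.33e-06) and served as an alternative.

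Here the raw signals were background-corrected from the detection p-values, quantile normalized and put on a log2 scale with limma's neqc (limma 3.58.1, R 4.3.3, offset 16). Probes were kept when the detection p-value was under 0.05 on at least 3 of 12 arrays (17844 of 46713), and the probe with the highest mean stood for each of 13528 genes (1099 had more than 1 probe). Gene names came from RefSeq tables by accession, symbol or synonym and otherwise from the files. The difference of responses was a contrast in a 4-group fit with lmFit and eBayes, two-sided, with Benjamini-Hochberg adjustment over all 13528 genes and a threshold of 0.05. Intervals are 95% intervals of that fit. A bound written as at least N-fold compares the brighter group with the higher of the dim probe and the lowest detected signal. Where the dim probe is the higher, it equals the fitted fold change. That was so for UNG, MMP9 and TM4SF19, and the fitted fold change is given for them. The number of arrays limits the precision, and signals cover 33.1% to 35.1% of probes. On simulated data of 13528 genes, 200 of them changed, 55.2% of changes of 0.5, 94.0% of changes of 1 and 100% of changes of 2 were recovered, with 8 false calls. The simulated noise was normal and independent between genes, and far fewer genes were changed than were called in the data. These rates therefore need not hold for the data.

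Genes named by rule were EZH2, the 10 largest differences each way among genes detected in all 4 groups (provisional symbols left out), the largest of each class and of each gene list; the other list members given were chosen after their values were seen. Some genes that the rule or the lists took are not reported here. The lists and the contrast were chosen with earlier results of these data known. Alternatives were no background correction, median scaling, the authors' table, an offset of 50, other detection filters, the mean of probes, array weights, another prior, a replicate block and leaving out each array.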

Additional observations from a re-analysis of the deposited data

How the results depend on the processing

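The total of genes past the threshold ran between 3404 with median scaling (1680 higher, 1724 lower) and 5714 with array weights (2936 higher, 2778 lower), beside 4579. Leaving out single arrays gave 2036 to 2383 higher and 1943 to 2197 lower. When detection on all 12 arrays was asked for, 4217 of the 4579 genes were tested and 3 changed sign, and 2 of the 4579 did with the mean of probes. EZH2 had a difference of 0.40 without background correction and 0.38 in the authors' deposited normalized table, both past the threshold, and 0.16 to 0.42 without single arrays, not past it. Whether replicate numbers pair the samples was not settled. Same-numbered arrays of 2 groups had deviations correlating at -0.406 to 0.547 (median 0.011, beside -0.016 for other numbers), and 7 of 12 arrays fitted their own number best. With the replicate block 2369 genes were higher and 2246 lower, 4325 of them shared with the 4579. Among named genes, SLC36A4, HOXD3 and MRPS22 lost the call under median scaling, as did RPL34 with the mean of its probes (-0.45), whose other probe gave 0.78. Median scaling also changed some small list counts: PRC1 had 3 lower (beside 5), the TGF-beta and BMP list 3 lower (beside 5), HOX genes 2 lower (beside 4), immediate early genes 4 higher (beside 7), mitochondrial ribosomal proteins 2 higher (beside 4) and the unfolded protein response list 1 lower (beside 2). With array weights mitochondrial ribosomal proteins had 8 higher and PRC1 5 higher (beside 3). The cause was not tested. Probes not above background give only bounds or fitted values near background, and the triplicates limit what small differences can be called.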

Other observations

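Some genes of cell contact and growth factor signalling whose differences are given above had responses of opposite sign. CLDN1, which seals tight junctions, had a miR-101 response of 1.52 and an EZH2 siRNA response of -0.97. SMAD3 had -1.04 and 0.53, with a control gap of 0.97, and its receptor TGFBR2 had 0.66 and -0.91. For PDGFC, a ligand of the PDGF receptor not named above, only the difference of 1.94 is given.

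Probes without a gene name were in no comparison above. Of 3127 such probes that passed the detection filter, 149 were higher and 128 lower, against 2447 and 2334 of 14717 named probes.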
